A study of Mus musculus with 6 samples.

Results

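Mab21l2, its paralogue Mab21l1, the connexin genes Gja3 and Gja1 and the exchange factor gene Rasgef1b were read in mouse forelimb buds across RA exposure, loss of Ring1A and Ring1B, and a control. These are 5 of the 18193 genes on the arrays, and 12 probe sets measure them. Mab21l2, Gja3 and Rasgef1b were chosen by their measured values, because each was 2-fold or more lower in dKO and in RA than in control in both parts of the bud. Mab21l1 and Gja1 were added as their paralogues. For the first 3 genes those differences are therefore a description, with no test.

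The buds were taken at E10.5 from CD1 mice and cut into proximal and distal parts, with 1 array for each of the 6 combinations of condition and part. RA embryos are labelled wild type and were exposed to all-trans RA (retinoic acid) at E10.25 through an oral dose of 100 mg/kg to the mother. The dKO embryos are Prx1-Cre; Ring1A-/-; Ring1Bfl/fl, and the Prx1-Cre transgene is known to act in limb mesenchyme, not in the limb ectoderm. The control embryos are described as wild type but carry the genotype label Ring1A-/-, and the design text names them as the Ring1A knockout. By these labels dKO and control share the loss of Ring1A and differ in Ring1B and the Cre transgene, whereas RA and control differ in RA and in the Ring1A genotype together. The labels do not say how many embryos went into an array. With 1 array per group no difference between arrays has a replicate check, and the number of arrays limits the precision.

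Mab21l2 and Mab21l1 encode proteins with a nucleotidyltransferase fold that mouse embryos need for eye development, and Mab21l2 also for closure of the ventral body wall. Connexins form gap junctions, channels that let ions and small molecules pass between neighbouring cells. Gja3 is known for its part in lens fibre cells, and Gja1 is the most widely used connexin of embryonic and adult tissues. RASGEF1B activates small GTPases of the RAP2 group, as known from studies of the human protein. RING1A and RING1B are the ubiquitin ligases of Polycomb repressive complex 1, which holds developmental genes silent, and RA is a signal of the body wall and proximal limb.

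RefSeq lists a promoter window for 4 of the 5 genes on GRCm38.p6, running from 250 bases before to 50 bases after the annotated start. The windows of the 3 chosen genes are shown because these genes were low on the same arrays. Capitals mark matches to 3 core promoter motifs, searched on both strands. The TATA box was searched as TATAAA, and the CCAAT box by the letters of its name. The GC box was searched as GGGCGG. Each line runs 5′ to 3′ along the gene's strand, which is the minus strand for all 3, at chr3:86548234-86548533 for Mab21l2, chr14:57057981-57058280 for Gja3 and chr5:99252878-99253177 for Rasgef1b.
Mab21l2: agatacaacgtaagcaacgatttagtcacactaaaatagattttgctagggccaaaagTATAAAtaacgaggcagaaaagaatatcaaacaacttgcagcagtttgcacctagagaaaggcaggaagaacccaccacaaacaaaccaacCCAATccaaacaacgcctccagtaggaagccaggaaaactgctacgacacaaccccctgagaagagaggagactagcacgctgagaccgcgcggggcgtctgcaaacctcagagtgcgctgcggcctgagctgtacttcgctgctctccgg
Gja3: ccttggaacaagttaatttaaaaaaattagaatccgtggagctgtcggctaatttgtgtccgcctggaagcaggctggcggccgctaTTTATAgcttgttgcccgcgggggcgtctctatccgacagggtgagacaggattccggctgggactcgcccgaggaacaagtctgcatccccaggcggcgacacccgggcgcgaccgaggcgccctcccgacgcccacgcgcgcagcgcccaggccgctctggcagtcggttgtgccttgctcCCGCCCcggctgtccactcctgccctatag
Rasgef1b: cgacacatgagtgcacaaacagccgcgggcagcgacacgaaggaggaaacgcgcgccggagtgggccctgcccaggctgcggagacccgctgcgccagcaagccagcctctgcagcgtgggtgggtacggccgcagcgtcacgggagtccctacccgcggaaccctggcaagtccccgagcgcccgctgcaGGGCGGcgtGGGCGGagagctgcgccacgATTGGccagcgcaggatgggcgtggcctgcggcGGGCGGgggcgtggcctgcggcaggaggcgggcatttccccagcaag

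In the Mab21l2 window a TATA box begins at position -192 and a CCAAT box at -101, counted from the start, with the first transcribed base as 1. In the Gja3 window a TATA box lies on the opposite strand from -163 and a GC box on the opposite strand from 21. Rasgef1b has GC boxes at -59, -50 and 4, and a CCAAT box on the opposite strand from -30. No single motif is in all 3 windows. Over all 32851 promoters of 27025 genes, the TATA box occurred in 13.6%, the CCAAT box in 37.4% and the GC box in 35.7%. The homeodomain motif TGACAG, known for MEIS and TGIF factors, and the nuclear receptor half-site AGGTCA were in none of the windows, against 19.2% and 16.3% of all promoters. Direct repeats of the half-site spaced by 2 or 5 bases, the arrangements that RA receptors prefer, were in none either and in 0.00913% of all promoters each. A match is only a match of letters, and these windows cover little of what could regulate a gene.

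The windows differed in base composition. Rasgef1b had a GC content of 73.3% and 35 CpG dinucleotides, and Gja3 had 63.3% and 29, against medians of 52.7% and 7 over all promoters. Mab21l2 stood at 49.7% GC with 14 CpG. A second Gja3 window and the Gja1 window, neither of which is printed, held none of the motifs, with 76% and 47.7% GC.

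The deposited values are signals from the authors' MAS5 processing, scaled to the same trimmed mean on every array. A signal below the median of its array was set to that median, called the floor, which was between 59.5 and 76.1. A difference that ends at a floored array is a bound. "Higher" and "lower" are used for differences between single arrays, and "rose" and "fell" for effects past an adjusted p of 0.05 in the limma fit described with the processing. That fit uses condition and part as terms over 12147 genes and weighs an effect against its disagreement between pairs of arrays, so it is not a test over replicates. All 5 genes were above the floor on at least 1 array and entered it. Of the 12 probe sets, 7 were above the floor on all 6 arrays and 3 on none.

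The RA arrays stood apart from the others in features unrelated to these genes. Xist, the RNA of the inactive X chromosome, had 12.9 and 29.5 there, against 3017 to 3688 on the other 4 arrays. Eif2s3y, a Y-linked gene, had 2783 and 3064, against at most 12.3. The BioB spike-in averaged 216 and 179, against 1435 to 1574. The proximal RA array also had the highest actin 3′/5′ signal ratio, 1.95 against 1.52 to 1.72 on the others. What these features contribute to the RA values below was not tested. The single-array differences of dKO from control do not use the RA arrays, but the limma errors and p-values of dKO effects do. Ring1, which encodes RING1A, had signals of 419.8 and 245 in RA, 402 and 578 in dKO, and 624 and 968 in control. The RA arrays, labelled wild type, were thus below the control arrays, labelled Ring1A-/-. Rnf2, which encodes RING1B, had 1941 and 2085 in RA, 2147 and 1887 in dKO, and 2042 and 2070 in control. The position of these probes against the deleted exons is not known here, so they do not check the labels.

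Mab21l2 had signals of 190.5 proximally and 422 distally in RA, 173.7 and 247 in dKO, and 1363 and 1808 in control (probe set 1418934_at). Both control arrays were above the other 4, and all 6 were above the floor. The dKO signal was 7.84-fold lower than control proximally and 7.31-fold lower distally. In RA it was 7.15-fold lower proximally and 4.28-fold lower distally, so the distal RA array had the smallest of the 4 differences. These were the largest dKO differences among the genes that were 2-fold lower in all 4 comparisons. In bulk tissue, fewer cells that carry a transcript and less of it per cell cannot be told apart.

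Gja3 had signals of 69.7 and 306 in RA, 66.2 and 226.7 in dKO, and 336 and 1300 in control (probe set 1439793_at, proximal before distal). The proximal dKO signal was below its array's floor, and the proximal RA signal was just above. The dKO signal was at least 4.61-fold lower than control proximally and 5.74-fold lower distally, and the RA signal was 4.82-fold and 4.25-fold lower. The distal RA and dKO arrays stood below the proximal control array, so all 4 low arrays were below both control arrays. The second Gja3 probe set, 1422339_at, had signals of 2.55 to 9.15, below the floor on every array, and therefore gives no difference.

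Rasgef1b had signals of 119 and 319 in RA, 248 and 251 in dKO, and 504 and 814 in control (probe set 1454742_at). Every RA and dKO array was again below both control arrays, but by less than for Mab21l2. The log2 difference from control was -1.02 proximally and -1.70 distally in dKO, and -2.08 and -1.35 in RA. Its proximal dKO value was thus only just past 2-fold.

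**Figure D1:**
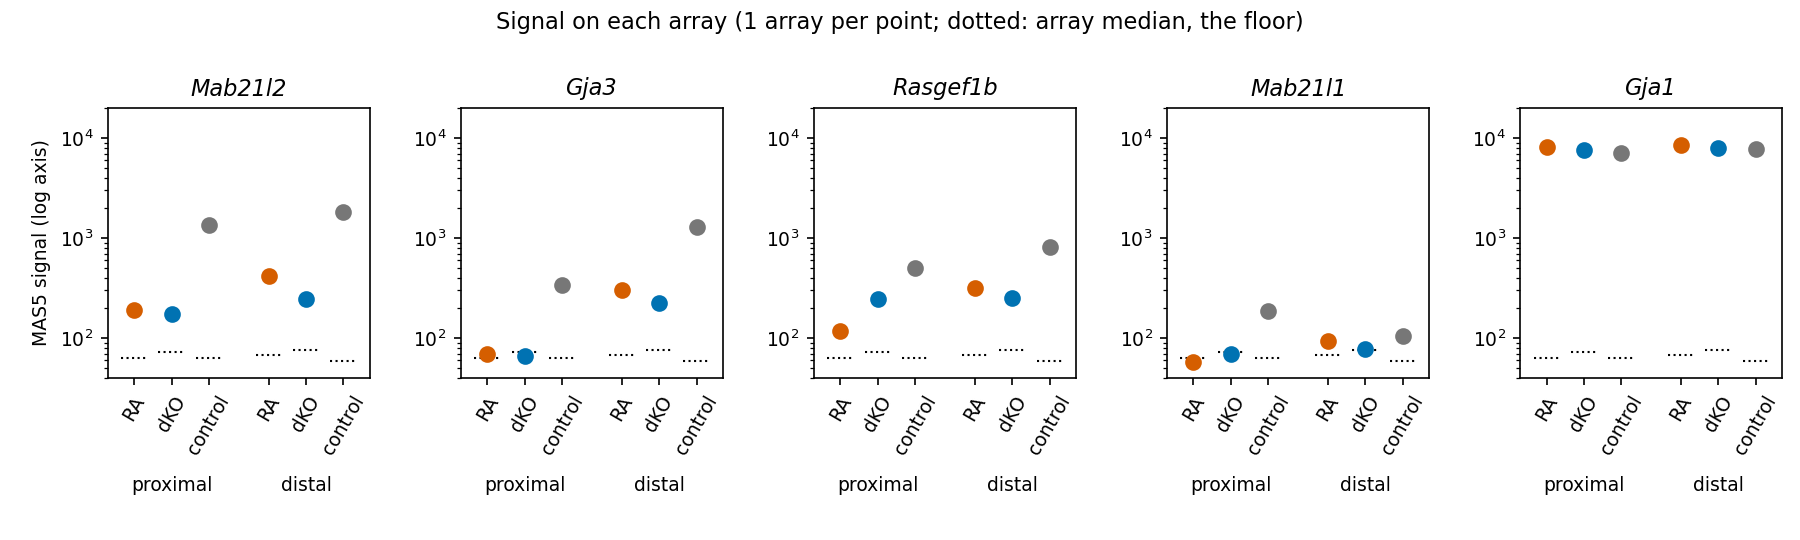
MAS5 signal (log axis) of the 5 genes, 1 point per array, with RA, dKO and control for the proximal and then the distal part; dotted lines mark each array's floor. For Mab21l2, Gja3 and Rasgef1b both control arrays stand above the RA and dKO arrays. Gja1 is drawn from probe set 1437992_x_at, with signals between 7166 and 8543 on all 6. Other Gja1 probe sets differ, with 3043 for 1415800_at on the proximal RA array.

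Signals lower by 2-fold were rarer in dKO than in RA in both parts. Of all genes measured, 0.363% were 2-fold or more lower in dKO proximally and 0.524% distally, against 6.8% and 2.13% in RA. In both parts at once, 21 genes (0.185%) were lower in dKO and 110 genes (0.992%) in RA. The comparisons of dKO and of RA with control share the control arrays, so a high control signal enters both. In all 4 comparisons 6 of the 11391 genes above the floor on a control array (0.0527%) were 2-fold or more lower. Of the 12147 genes above the floor on any array, 11 were 2-fold or more higher in all 4. Because the rule used these values, nothing is read from the count of the chosen genes among the 6.

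Besides Mab21l2, Gja3 and Rasgef1b, those 6 genes were 4930481B07Rik, Meox2 and Hoxd11. Meox2, a homeobox gene of somites and limb muscle, had signals of 344.7 and 330 in RA, 519 and 385 in dKO, and 1069 and 1271 in control. Hoxd11, a HoxD gene of the distal limb, had 331 and 933 in RA, 233 and 439 in dKO, and 1032 and 1875 in control. For Hoxd11 the distal RA array came near the proximal control array, so its groups were separated less clearly than those of Mab21l2. The RNA gene 4930481B07Rik was lower by log2 -2.59 proximally and -1.88 distally in dKO, and by -1.28 and -1.93 in RA.

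At the edge of the 2-fold limit, the smallest of the 4 log2 differences was -1.04 for Meox2, -1.02 for Rasgef1b and -1.01 for Hoxd11, just inside. Just outside it were H1f2, a linker histone gene, at -0.93, the WNT enhancer gene Rspo3 at -0.86 and the posterior signal Shh at a bound of -0.83. H1f2 had signals of 197 and 392 in RA, 317 and 296 in dKO, and 853 and 748 in control, a separation similar to that of Rasgef1b. At 1.5-fold the list has 23 genes, and at 3-fold only Mab21l2 and Gja3 are left.

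**Figure D2:**
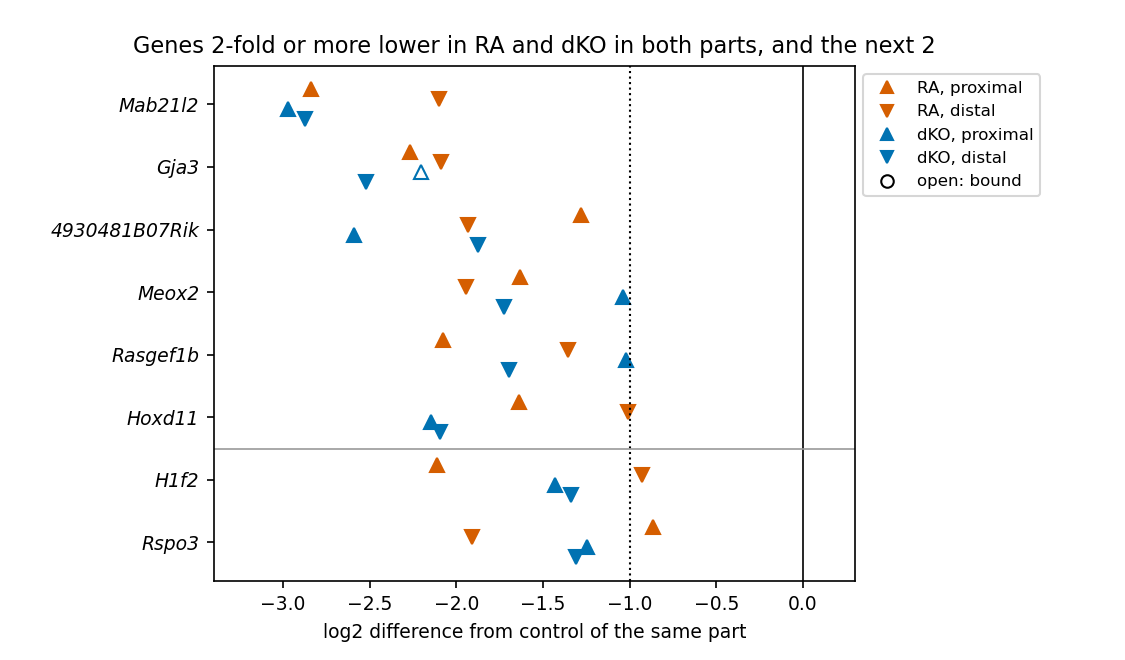
Log2 difference from the control array of the same part (x axis) for the 6 genes that were 2-fold or more lower in RA and dKO in both parts, with H1f2 and Rspo3 just outside below the line. Triangles up are proximal and triangles down distal, the open symbol is a bound, and the dotted line marks 2-fold; Mab21l2 reaches -2.97 in dKO proximally.

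The RA and dKO arrays can also be set against each other. The rule did not use this contrast itself, but it chose the 3 genes for low values on both of its sides. The values are therefore a description. RA minus dKO was log2 0.13 proximally and 0.77 distally for Mab21l2. It was a bound of -0.07 and then 0.43 for Gja3, and -1.06 and 0.34 for Rasgef1b. Distally all 3 genes were thus higher in RA than in dKO. Proximally Mab21l2 was higher and Rasgef1b lower. The proximal sign for Gja3 is not settled, because its dKO signal there was below the floor. In limma this contrast was log2 0.45 for Mab21l2 (SE 0.27, adjusted p = 0.339), 0.18 for Gja3 (adjusted p = 0.668) and -0.36 for Rasgef1b (adjusted p = 0.555). None passed, which is no test of likeness, because the rule asked for low values in both conditions. Of all genes 0.939% rose and 5.43% fell in RA relative to dKO.

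The rule took no account of the difference between the parts of the bud. Gja3 was lower proximally in every condition, by log2 -2.13 in RA, a bound of -1.63 in dKO and -1.95 in control. These are 4.39-fold, at least 3.10-fold and 3.87-fold. The distal excess of Gja3 was therefore of similar size in the control buds and in the buds where both parts were low. In limma the part effect of Gja3 was log2 -1.91 (SE 0.20) and did not pass (adjusted p = 0.0748). No gene had a lower adjusted p for part, but adjusted values can be tied between genes. This does not place Gja3 first for part. The Gja3 part effect passed when a pair of arrays was left out. Its adjusted p was 0.000222 without the RA pair, 1.81e-05 without the dKO pair and 0.00013 without the control pair. Those fits called 431, 354 and 295 of 12147 genes for part, against 0 in the full fit, so the shift was not particular to Gja3. They have 1 residual degree of freedom and rest almost wholly on variance pooled over genes. Across all 8 alternative fits the adjusted p of Gja3 lay between 1.81e-05 and 0.243.

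Mab21l2 was also lower proximally in all 3 conditions, by log2 -1.15 in RA, -0.51 in dKO and -0.41 in control. Only the RA pair reached 2-fold. For Rasgef1b the values were -1.42 in RA, -0.02 in dKO and -0.69 in control, so the dKO parts had nearly the same signal. The limma part effects of -0.69 for Mab21l2 (SE 0.22, adjusted p = 0.394) and -0.71 for Rasgef1b (SE 0.29, adjusted p = 0.517) did not pass. Over all genes the fit called 0 (0% in each direction) for part, with 1156 at an unadjusted p under 0.05.

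Of the 15 part differences of the 5 genes, 5 reached 2-fold, all of them lower proximally. Of all measured genes 6.16% were 2-fold or more lower proximally in RA, 0.722% in dKO and 1.4% in control. Among the 6 genes low in all 4 comparisons, the median part difference was log2 -1.28 in RA, -0.71 in dKO and -0.56 in control, against 0.04, -0.00 and -0.00 over all genes measured in control. All 6 were lower proximally in control, as were 5712 of the 11391 genes measured there. In all 3 conditions 4 of the 6 were lower, a share not counted over all genes. The 6 genes were picked from the same arrays, so these counts are a description only.

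**Figure D3:**
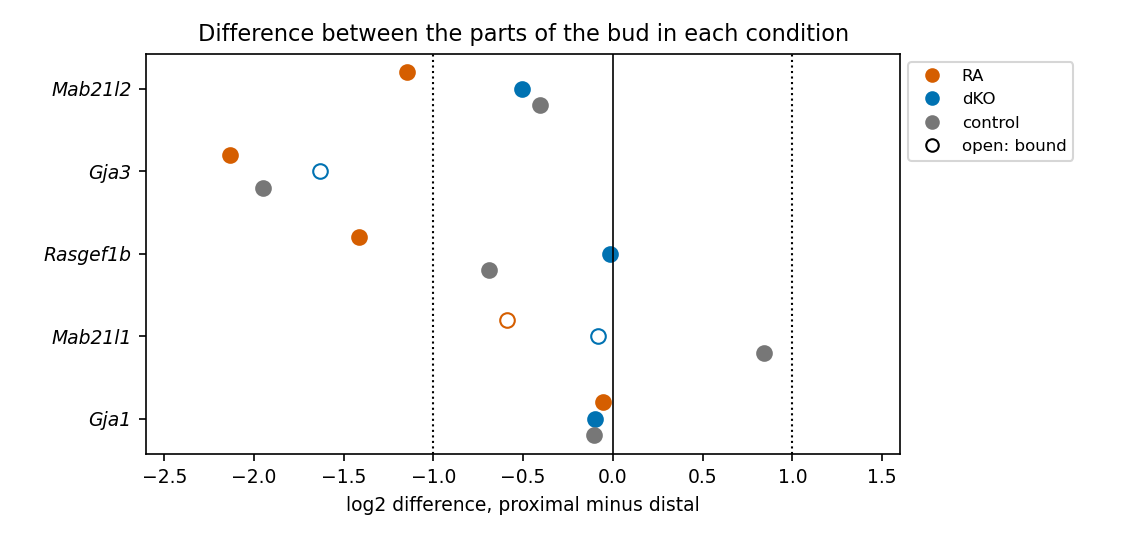
Log2 difference of the proximal from the distal array (x axis) for each of the 5 genes in RA, dKO and control; open symbols are bounds and dotted lines mark 2-fold. Gja3 lies between -2.13 and -1.63 in all 3 conditions, while Mab21l2 and Rasgef1b pass 2-fold in RA only.

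Markers of the apical ridge, the signalling epithelium at the bud's distal edge, were also lower proximally by their median. The median was log2 -1.63 in RA, -0.52 in dKO and -1.19 in control. Of 11 ridge markers, 10 exceeded the floor somewhere, and 6 were 2-fold lower proximally in RA, 0 in dKO and 6 in control. Their summed signal was 1348 and 6121 in RA, 3214 and 4740 in dKO, and 3094 and 8656 in control, proximal before distal. The ridge growth factor Fgf4 had 39.0 and 1431 in RA, 26.2 and 104 in dKO, and 92.7 and 2141 in control. Its proximal RA and dKO signals were below the floors of those arrays, 63.0 and 73.0. None of the ridge markers passed in limma for condition or part. Their part in the Gja3 and Mab21l2 values was not tested.

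Surface ectoderm markers had summed signals of 10149 and 12825 in RA, 11731 and 17352 in dKO, and 10377 and 17335 in control. Limb mesenchyme markers, 9 of 9 above the floor on all 6 arrays, had 17647 and 23765 in RA, 21654 and 22571 in dKO, and 25498 and 26283 in control. The mesenchyme markers thus match the labelled tissue, with the lowest sum on the proximal RA array. No marker on either list passed in limma for condition or part. Summed signals of muscle precursor markers were higher proximally, at 4094 and 855 in RA, 5686 and 2464 in dKO, and 4000 and 1243 in control. In RA 3 of 5 measured markers were 2-fold higher proximally and 1 was 2-fold lower. In dKO and in control 2 of 4 were higher and 0 lower. Over all genes, 506 of 11493 were 2-fold higher proximally in RA, 60 of 11642 in dKO and 154 of 11391 in control. The sums ran opposite to Mab21l2 and Gja3, and to Rasgef1b except in dKO, where its parts were nearly level.

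The paralogue Mab21l1 had signals of 57.3 and 94.8 in RA, 69.8 and 77.4 in dKO, and 186.7 and 104 in control (probe set 1424679_at). The proximal control array was the highest, and the proximal RA and dKO arrays were below their floors. Its proximal log2 difference was a bound of -1.57 in RA and of -1.35 in dKO, while the distal differences were -0.14 and -0.43. In limma the dKO effect was -0.89 (SE 0.33, adjusted p = 0.347) and the RA effect -0.85 (SE 0.33, adjusted p = 0.281), so neither passed. The dKO effect passed in 1 of 6 alternatives, the fit without the RA arrays (adjusted p = 0.0203). That fit called 1447 genes for dKO, 211 of them lower, against 283 and 14 in the full fit. Over all genes tested, 2.21% rose and 0.115% fell in dKO, and 0.305% rose and 0.239% fell in RA. Between the parts of the control bud Mab21l1 was higher proximally (log2 0.84), the opposite of Mab21l2. Its second probe set, 1421369_a_at, had signals of 24.4 to 51.7, below the floor on every array.

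Gja1 had signals of 8238 and 8543 in RA, 7532 and 8054 in dKO, and 7166 and 7714 in control on the probe set used for the gene, 1437992_x_at. Both RA arrays were slightly above the other 4, and the dKO and control signals overlapped. In limma the dKO effect was log2 0.07 (SE 0.14, adjusted p = 0.9996) and the RA effect 0.17 (SE 0.14, adjusted p = 0.528). The sign of these small values depended on scaling. The dKO effect was -0.00 after quantile normalization and -0.21 after division of each array by its median, and the RA effect was -0.05 and 0.09.

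The other Gja1 probe sets did not all behave alike. Probe set 1415800_at had 3043 and 6545 in RA, 5805 and 7052 in dKO, and 6277 and 6371 in control, with the proximal RA array alone low (log2 -1.04 against control). Probe set 1438973_x_at had 463 and 738 in RA, 1009 and 1637 in dKO, and 997 and 2523 in control. On this probe set RA was lower in both parts (log2 -1.11 and -1.77) and dKO distally (-0.62). The suffix _x_at marks probe sets that can also match other sequences.

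Over the 5 probe sets of Gja1 above the floor on all arrays, the dKO difference was between -0.11 and 0.07 proximally and between -0.62 and 0.20 distally. The RA difference was between -1.11 and 0.20 proximally, with 2 of 5 at 2-fold lower, and between -1.77 and 0.15 distally, with 1 of 5. A decrease in RA is therefore seen on some Gja1 probe sets and not on others. The sixth probe set, 1415801_at, had signals of 32.3 to 50.3 and gave no difference.

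**Figure D4:**
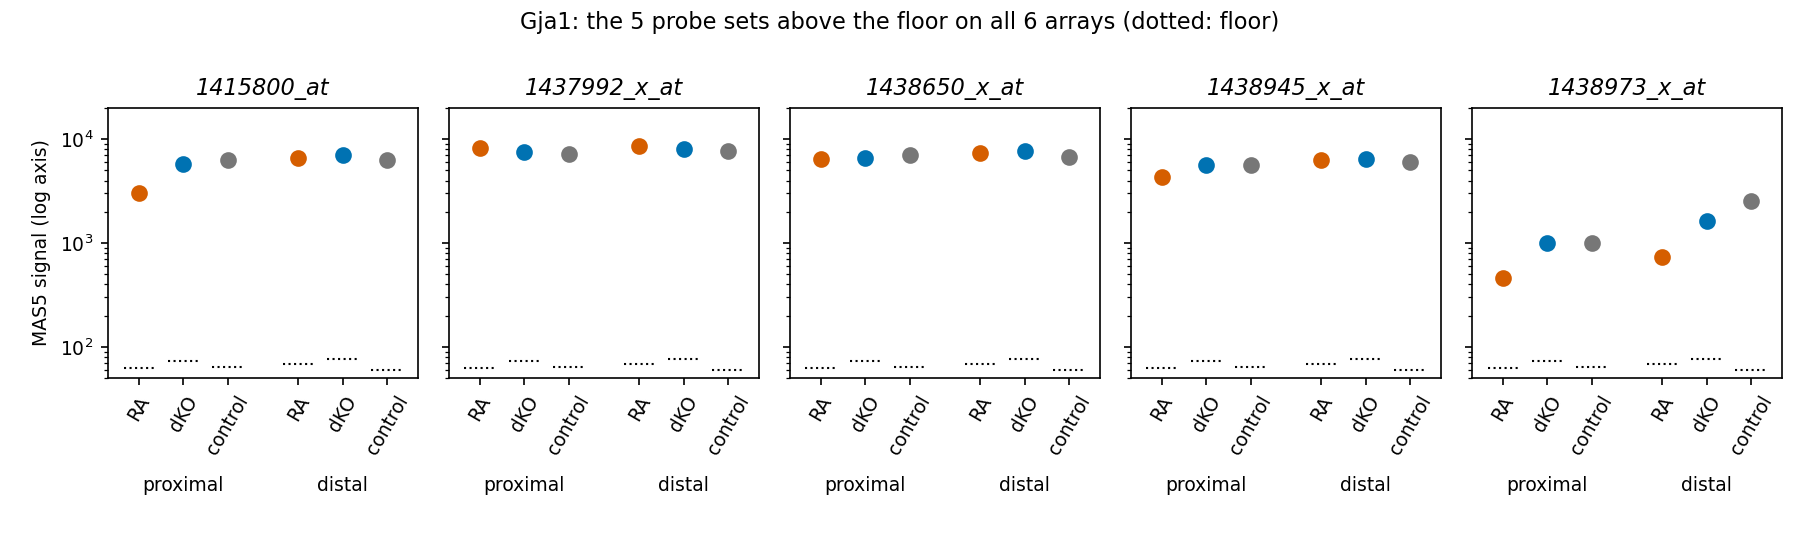
MAS5 signal (log axis) of the 5 Gja1 probe sets that were above the floor on all 6 arrays, 1 point per array, with RA, dKO and control for each part and the floors dotted. Probe sets 1415800_at and 1438973_x_at are low in RA proximally (3043 and 463), whereas 1437992_x_at varies little.

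Mab21l2 lies within the Lrba gene and Mab21l1 within Nbea, both of which encode large BEACH-domain proteins. Lrba had signals of 224 and 324 in RA, 281 and 296 in dKO, and 431 and 513 in control. It too was highest on the control arrays, but differed by log2 -0.62 and -0.79 in dKO and -0.95 and -0.66 in RA, less than 2-fold in each. In limma Lrba did not pass (dKO -0.71, SE 0.25, adjusted p = 0.303; RA -0.81, SE 0.25, adjusted p = 0.222). Nbea had 772 and 1431 in RA, 944.5 and 1267 in dKO, and 1195 and 1323 in control, with adjusted p = 0.939 for dKO and 0.555 for RA. Only its proximal RA array stood well below control (log2 -0.63).

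**Figure D5:**
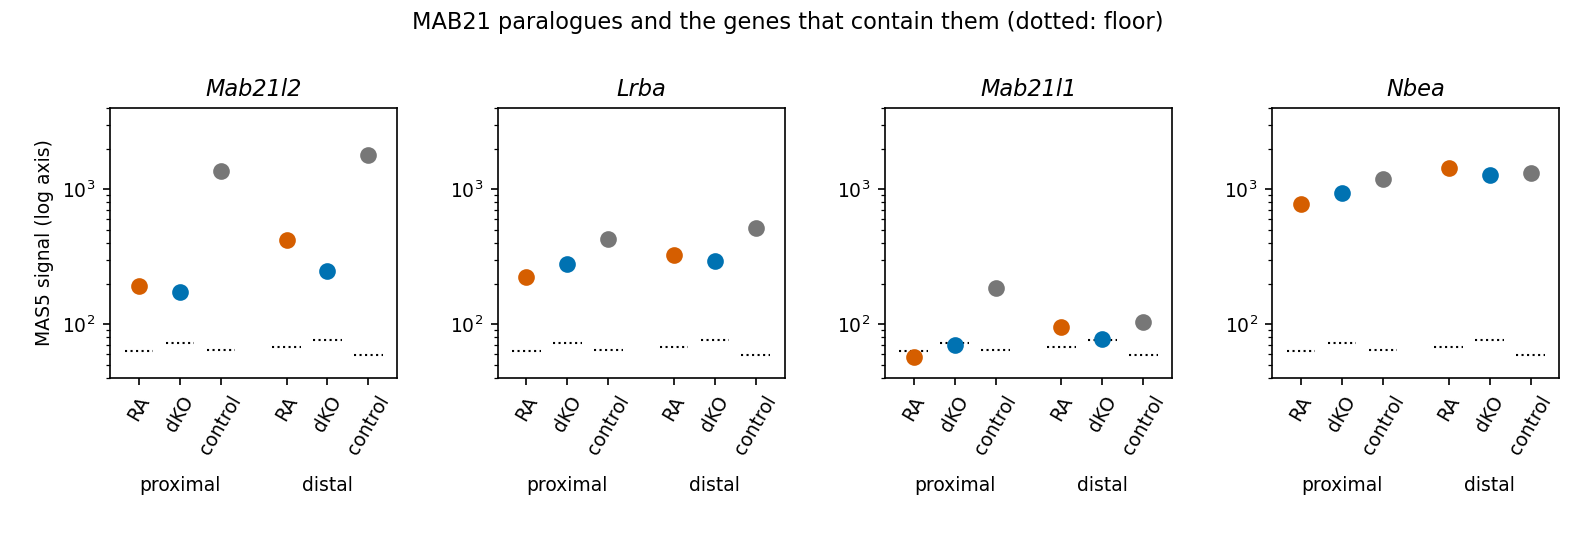
MAS5 signal (log axis) of Mab21l2, of Lrba that contains it, of Mab21l1 and of Nbea that contains it, 1 point per array, with RA, dKO and control for each part and the floors dotted. The control arrays are the highest for Mab21l2 and Lrba, with a separation of at most 1.93-fold for Lrba and up to 7.84-fold for Mab21l2.

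The other neighbours differed among themselves. Prkg2, the cGMP-dependent kinase gene next to Rasgef1b, had signals of 176 and 167 in RA, 607 and 547 in dKO, and 152 and 88.4 in control. It rose in dKO (log2 2.31, SE 0.27, adjusted p = 0.0124, called in 6 of 6 alternatives), opposite in direction to Rasgef1b. Gjb2, the connexin gene next to Gja3, had 1591 and 801 in RA, 266 and 608 in dKO, and 832 and 426 in control. It was lower in dKO proximally and higher distally, and neither condition passed (adjusted p = 0.903 for dKO and 0.403 for RA). Dclk1, the doublecortin-like kinase gene beside Mab21l1, had 404 and 674 in RA, 827 and 1040 in dKO, and 1223 and 1246 in control. Its control arrays were the highest, as for Lrba, and it did not pass (adjusted p = 0.0797 for RA and 0.66 for dKO). Rps3a1 and Dclk2 beside Mab21l2 and Tbc1d32 beside Gja1 did not pass in either condition.

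Of the 12 MAB21 family genes on the array, 8 were above the floor on at least 1 array. Of the 7 other than Mab21l2, 1 rose and 0 fell in dKO, and 0 rose and 0 fell in RA, with median effects of -0.06 and 0.00 against 0.02 and 0.00 over all genes. Of all genes 2.21% rose in dKO, so 1 call among 7 is not read as a result about the family. The family gene that rose was Cgas, the cytosolic DNA sensor of innate immunity. Its signals were 102.9 and 56.3 in RA, 489 and 635 in dKO, and 37.5 and 41.0 in control. Cgas was at least 7.65-fold higher in dKO than in control proximally and at least 10.7-fold distally (limma log2 3.18, SE 0.28, adjusted p = 0.00625, called in 6 of 6 alternatives). Itprip, an inhibitor of the inositol trisphosphate receptor, had 474 and 417 in RA, 737 and 731 in dKO, and 813 and 829 in control, and did not pass in RA (adjusted p = 0.127).

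Of 14 connexin genes on the array 7 were above the floor, and none of the 6 other than Gja3 was called in either condition. Their median effects were -0.00 in dKO and 0.45 in RA. Between the parts, Gjb5 was lower proximally in all 3 conditions, as Gja3 was. Its log2 differences were a bound of -1.70 in RA, -1.08 in dKO and -1.23 in control (limma part effect adjusted p = 0.127). Gja4 was higher proximally, by log2 1.76, 0.66 and 1.57 (adjusted p = 0.18). Gjc1, a connexin of early heart and vessels, had 1754 and 2018 in RA, 2148 and 1791 in dKO, and 2600 and 2271 in control (adjusted p = 0.661 for dKO and 0.331 for RA). Gjb6 had 181 and 88.2 in RA, 47.1 and 78.1 in dKO, and 98.6 and 44.3 in control. It thus had the order of Gjb2, its close relative, in both parts, though its proximal dKO and distal control signals were below the floor.

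Of the 3 pannexin genes, which encode channels related in shape to connexins, 2 were above the floor. Panx2 rose in dKO, as did 2.21% of all genes. Its signals were 66.7 and 31.7 in RA, 199 and 142 in dKO, and 52.1 and 41.6 in control. The limma effect was log2 1.45 (SE 0.20, adjusted p = 0.0211), called in 2 of 6 alternatives, with adjusted p up to 0.0892. Of 9 genes for partner proteins of Gja1, none was called in limma (median -0.01 in dKO and -0.15 in RA). On the proximal RA array 2 of them were 2-fold or more lower than in control, Cav1, a caveola coat gene (log2 -2.05), and Cdh2, a cadherin gene (-1.08). The share of all genes lower there was 6.8%.

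Among RAS and RAP exchange factors, 17 of 23 genes on the array were above the floor. Of the 16 other than Rasgef1b, 1 rose and 0 fell in dKO, and none was called in RA, with medians of 0.15 and 0.17. Of all genes 2.21% rose and 0.115% fell in dKO. With so short a list, 1 call is not read as a result about the family. Rasgrp2, an exchange factor for RAP1 best known in platelets, had 90.1 and 80.4 in RA, 288 and 487 in dKO, and 120 and 97.4 in control. It rose in dKO (log2 1.79, SE 0.31, adjusted p = 0.0388), called in 2 of 6 alternatives, with adjusted p up to 0.139. Rapgef3, a cAMP-activated exchange factor, was higher in both conditions, at 293 and 496 in RA, 284 and 255 in dKO, and 130 and 117 in control, but did not pass (adjusted p = 0.0832 for RA and 0.159 for dKO). The paralogues Rasgef1a and Rasgef1c were below the floor on every array. None of 11 RAP and RAS GTPase genes was called (median 0.08 in dKO and -0.15 in RA).

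Genes of limb signalling pathways gave no limma calls either, in lists too short to expect many. Of 19 BMP pathway genes, 10 FGF response genes and 11 SHH pathway genes above the floor, none rose or fell in dKO or RA. Their median effects in dKO were 0.06, -0.36 and 0.06, and in RA -0.39, -0.45 and 0.22. The FGF response list was thus below the median of all genes in both conditions. Over all genes 2.21% rose and 0.115% fell in dKO, and 0.305% rose and 0.239% fell in RA. On the proximal RA array 5 BMP, 4 FGF response and 1 SHH pathway genes were 2-fold or more lower than control. The share over all genes there was 6.8%. Distally in RA the counts were 2, 0 and 1, against 2.13%, and 1 SHH pathway gene was 2-fold higher. In dKO the counts lower than control were 0, 1 and 1 proximally, against 0.363%, and 1, 1 and 2 distally, against 0.524%. The FGF response gene was Spry1 in both parts (log2 -1.14 and -1.19), which did not pass (dKO adjusted p = 0.0613). In dKO 2 BMP genes were 2-fold higher proximally and 1 SHH pathway gene distally. Grem1, a BMP antagonist of the posterior mesenchyme, had 80.9 and 483 in RA, 234 and 368 in dKO, and 357 and 1208 in control (adjusted p = 0.16 for RA and 0.354 for dKO).

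Over the 6 arrays, Mab21l2 was set against 3450 genes with a log2 range of at least 1, on floored values. The 8 genes most like it by Pearson's r were Robo2 (0.979), Lmo1 (0.959), Lrba (0.954), Irs2 (0.952), H1f2 (0.944), Rassf9 (0.936), Hoxd11 (0.935) and Hsd11b2 (0.931). Robo2 was above the floor on only 3 arrays and Rassf9 on 2, so their likeness rests partly on floor values. Lmo1, a LIM-only transcriptional cofactor, had 376 and 623 in RA, 453 and 418 in dKO, and 770 and 1008 in control. Hsd11b2, a glucocorticoid-inactivating enzyme, had 1903 and 1883 in RA, 1929 and 2049 in dKO, and 3089 and 3944 in control. For both genes the control arrays were again the highest, with smaller differences than for Mab21l2.

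Rasgef1b had r = 0.906 with Mab21l2, ranking 11 of these genes, Gja3 had 0.889 at rank 12 and Mab21l1 0.819 at rank 24. Gja3 and Rasgef1b had r = 0.906 with each other, and Gja1 had -0.456 with Mab21l2. The 6 arrays share 3 conditions and 2 parts, and the 3 genes were chosen for low values in the same 4 arrays, so these correlations are a description only.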

How the data were processed

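RNA of 6 samples was measured on 1-colour Affymetrix arrays, and per the labels biotin-labelled cRNA was made from total RNA. The deposited values are signal intensity that the authors made with MAS5, per the submitters' processing notes, on a linear scale. On every array the mean without the lowest and highest 2% of probe sets was 500. No source used here gives the version.

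Of 45101 probe sets, 34958 had 1 listed gene, 932 several and 9211 none; gene IDs of 34741 matched RefSeq and 0 symbols changed. Each of 18193 genes was read from its brightest single-gene probe set (mean of log2 signal). Signals below the array median were set to it before log2. Single arrays were compared by log2 differences, without a test. Using limma 3.58.1 with a trended prior, condition and part were fitted additively over 12147 genes that exceeded the floor somewhere; calls needed a Benjamini-Hochberg adjusted p below 0.05. The fit has 2 residual degrees of freedom and a prior of 4.64, so its p-values rest mostly on variance pooled over genes, and floored values can make them too small. It was tested on simulated data.

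The members and gene lists were chosen with earlier results of these data known. The other genes named were the genes 2-fold lower in all 4 comparisons (at most 20), the 8 most like Mab21l2, the genes next to or containing a member, the genes next to the 2-fold limit, called list members, and list members chosen after their values were seen. Another floor, no floor, other scalings, other probe sets, other fold limits, a constant prior and fits without a pair of arrays were tried.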

Additional observations from a re-analysis of the deposited data

Results flagged for a closer look

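For 4 Gja1 probe sets the difference from control had opposite signs in the proximal and the distal part, in single arrays; whether the parts differ was not tested. In RA, 1415800_at was -1.04 proximal, 0.04 distal, 1438945_x_at was -0.39 proximal, 0.05 distal, and 1438650_x_at was -0.15 proximal, 0.12 distal, all on the log2 scale. In dKO the same 3 probe sets were -0.11 proximal, 0.15 distal (1415800_at), -0.02 proximal, 0.10 distal (1438945_x_at) and -0.10 proximal, 0.20 distal (1438650_x_at). Probe set 1438973_x_at went the other way in dKO, at 0.02 proximal, -0.62 distal. The only one of these values past 2-fold is that of 1415800_at on the proximal RA array, the array with the highest actin 3′/5′ ratio, whose part in it was not tested.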

How the results depend on the processing

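The 12 differences from control of Mab21l2, Gja3 and Rasgef1b were all 2-fold or more lower under the floor at the 25th percentile, division by the array median and quantile normalization; 11 were with no floor and a pseudocount of 16, and 8 with the second Gja3 probe set, which gives none. The 5 part differences at 2-fold stayed 5 in all 4 of these floor and scaling settings. The list low in all 4 comparisons had 6 genes, 5 to 9 under other floors, scalings and probe set means, 23 at 1.5-fold and 2 at 3-fold. Rasgef1b left the list with no floor (-0.98 in dKO proximally) and at 3-fold, and Gja3 left it with the mean over probe sets. Of single values of the 5 genes, 159 moved by less than 0.5 on the log2 scale and 9 by more, all on other Gja1 probe sets. Among these, Gja1 in RA changed sign and passed 2-fold lower proximally with 1415800_at (-1.04) and 1438973_x_at (-1.11, against 0.20), and distally with 1438973_x_at (-1.77, against 0.15). Counts over all genes moved more, and the cause was not tested: dKO calls were 283, against 1447 without the RA pair, 168 with the 25th percentile floor, 187 with no floor, 115 after median division and 87 after quantile normalization. RA calls were 66 (37 higher, 29 lower), against 537 without the dKO pair, 32 with the lower floor (24 higher, 8 lower), 35 after median division and 15 after quantile normalization (13 higher, 2 lower). Part calls were 0, against 431 without the RA pair, 354 without the dKO pair and 295 without the control pair, in fits with 1 residual degree of freedom.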
